A study of Mus musculus with 8 samples.

Results

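Activity-regulated genes are the genes that neurons switch on within minutes to hours of being stimulated. A set of 36 such genes was followed here, each found by its symbol in the annotation of the arrays, which gave 36 of 37074 gene names and 56 of the 56605 probes measured. The genes were divided by role into 16 fast transcription factors, 13 other early genes and 7 delayed effectors. Tissue holding the cerebral cortex and striatum came from 4 male C57BL/6J mice (B6), a common inbred reference strain, and from 4 male BTBRTF/ArtRbrc mice (BTBR/R). BTBR/R is an inbred subline related to BTBR/J, the subline often used to model autism spectrum disorder. No transgene, stimulus or treatment is given for any mouse other than the deep pentobarbital anesthesia that preceded decapitation in both strains. The mice were 4 months of age, apart from BTBR/R replicate 1 with an age of 6 months. Each array carried the labeled RNA of a single mouse, and the comparison asked which transcripts differed between the strains. The B6 mice were bought from a breeder and the BTBR/R mice came from a resource center, so that strain, source and housing history cannot be told apart. All 8 arrays lay on 1 slide, with B6 in column 1 and BTBR/R in column 2, so the position on the slide cannot be told apart from strain either.

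In a resting neuron most of these genes are nearly silent. Calcium that enters through NMDA receptors and L-type calcium channels activates calmodulin-dependent and MAP kinases, which act on transcription factors already present, chiefly CREB and SRF. The fast genes respond without new protein synthesis. Many of them encode transcription factors (the Fos, Jun, Egr and Nr4a families and Npas4), and others encode phosphatases and adaptors that restrain the same kinases. The genes grouped here as delayed effectors include some that act at the synapse or outside the cell, such as the growth factor Bdnf and the synaptic scaffold Homer1. The level of the fast genes in a brain is known to change with what the animal experienced shortly before the tissue was taken.

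Motifs of CREB and SRF can be read in the promoters of several members. RefSeq (GRCm38.p6) promoter windows could be matched for 28 of the 36 members, Cyr61 under its current symbol Ccn1, and were not matched for Egr1, Egr3, Arc, Ier2, Dusp4, Trib1, Sik1 and Nptx2. The 250 bases before each transcription start were searched on both strands for the core of the cAMP response element, TGACG, for the full palindrome TGACGTCA, which holds the core on each strand, and for the CArG box bound by SRF. The core was present in at least 1 window of 20 of the 28 matched members (71.4%), against 19.8% of 27025 genes with a window of the same length. It was found in 12 of 14 fast transcription factors, 4 of 8 other early genes and 4 of 6 delayed effectors. The full palindrome was present in 4 members (14.3%, against 1.77% of all genes) and the CArG box in 2 (7.14%, against 1.62%). A match describes the letters of the window and is not evidence of binding. The windows below are those of 3 members that differed between the strains, with the fast factor Egr2, the fast factor Fos and the phosphatase gene Dusp1, of 2 members that varied between B6 mice without passing the strain comparison, Npas4 and Btg2, and of the delayed effector Pcsk1. They are written 5′ to 3′ toward the transcription start, with capitals for the motifs found. 
Egr2: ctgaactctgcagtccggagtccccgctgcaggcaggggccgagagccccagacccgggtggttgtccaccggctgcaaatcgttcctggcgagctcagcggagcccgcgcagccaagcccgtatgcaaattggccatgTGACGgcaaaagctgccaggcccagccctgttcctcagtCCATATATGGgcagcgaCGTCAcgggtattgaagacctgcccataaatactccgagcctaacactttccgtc 
Fos: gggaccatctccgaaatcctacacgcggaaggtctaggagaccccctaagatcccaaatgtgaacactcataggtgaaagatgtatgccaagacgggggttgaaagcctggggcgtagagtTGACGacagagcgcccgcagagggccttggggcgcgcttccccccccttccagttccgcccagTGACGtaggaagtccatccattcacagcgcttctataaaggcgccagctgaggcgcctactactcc 
Npas4: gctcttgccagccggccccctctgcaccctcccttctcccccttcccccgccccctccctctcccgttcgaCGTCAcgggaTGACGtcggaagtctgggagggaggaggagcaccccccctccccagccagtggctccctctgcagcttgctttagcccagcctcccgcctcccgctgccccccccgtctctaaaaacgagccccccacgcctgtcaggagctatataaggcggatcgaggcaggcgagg 
Dusp1: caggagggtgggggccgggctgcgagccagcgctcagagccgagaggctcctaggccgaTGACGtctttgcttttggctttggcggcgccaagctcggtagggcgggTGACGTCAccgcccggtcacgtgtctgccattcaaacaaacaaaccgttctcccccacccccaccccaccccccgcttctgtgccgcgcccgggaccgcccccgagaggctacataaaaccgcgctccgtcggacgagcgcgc 
Btg2: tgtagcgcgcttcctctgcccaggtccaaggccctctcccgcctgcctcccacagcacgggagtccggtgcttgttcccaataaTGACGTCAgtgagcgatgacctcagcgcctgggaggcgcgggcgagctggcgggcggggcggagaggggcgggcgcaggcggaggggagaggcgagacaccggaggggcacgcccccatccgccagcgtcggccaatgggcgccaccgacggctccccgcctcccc 
Pcsk1: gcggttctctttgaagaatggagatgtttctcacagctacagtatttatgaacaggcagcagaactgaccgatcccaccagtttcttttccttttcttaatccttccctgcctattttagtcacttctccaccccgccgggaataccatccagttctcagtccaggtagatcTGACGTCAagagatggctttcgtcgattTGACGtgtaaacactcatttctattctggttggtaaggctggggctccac
These windows lie at chr10:67537619-67537868 (plus strand) for the middle of 5 listed starts of Egr2, at chr12:85473640-85473889 (plus strand) for Fos, at chr19:4989972-4990221 (minus strand) for Npas4, at chr17:26508473-26508722 (minus strand) for Dusp1, at chr1:134079156-134079405 (minus strand) for Btg2 and at chr13:75089607-75089856 (plus strand) for Pcsk1. In Egr2 a CArG box at -72 to -63, counted from the transcription start, stood between cores at -111 to -107 and -55 to -51. In Dusp1, Btg2 and Pcsk1 the full palindrome lay at -143 to -136, -166 to -159 and -78 to -71. Fos and Npas4 each held 2 cores and no full palindrome in this window. Of the 17 matched members that were higher in BTBR/R mice by the test given below, 13 held the core, and of the 11 that did not pass, 7 did.

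Detection of a probe means that the scanner software marked its spot as well above background, and 34 of the 36 members had a probe detected on all 8 arrays. Values are scaled log2 signals, the log2 of the spot signal after subtraction of the 75th percentile of all log2 signals on that array, so that 0 marks the 75th percentile and a difference of 1 is a 2-fold change. For a gene with several probes the brightest of those detected on all 8 arrays was used. Strain differences are BTBR/R minus B6, tested with limma with Benjamini-Hochberg adjustment over all 56605 probes, and a gene passed at an adjusted p below 0.05. The test and its intervals take the same spread in both strains, and no version that lets the spread differ was run. A probe reports the level of its own transcript and the brightness of different probes was not compared.

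Activity-regulated genes were higher in BTBR/R mice. Of the 36 members, 23 passed with a higher mean in BTBR/R (27.7% of all 56605 probes did), 13 did not pass and 0 were lower (11.6% of all probes were), and no further probe of any member was lower either. Among the 34 detected members, 22 were higher, whereas 13% of all 28547 probes detected on all 8 arrays were higher and 13.9% were lower. At least 2-fold higher were 8 of the 34, against 1.04% of all detected probes, and with Maff, which was near background, 9 of the 36, against 20.2% of all probes, many of them dim. The median difference was 0.66 over the 34 detected members and 0.0015 over all detected probes. The 4 BTBR/R mice all lay above the 4 B6 mice in 23 of the 34 detected members, a pattern held by 16.3% of all detected probes, and in no detected member did they all lie below, as they did in 16.4% of all detected probes. By role, the median difference was 0.88 in 14 fast transcription factors (range -0.14 to 2.27), 0.77 in 13 other early genes (0.18 to 1.94) and 0.18 in 7 delayed effectors (-0.14 to 0.88), ranges that overlap, and the difference between roles was not tested. In tissue of mixed cell types, fewer cells of a type and less RNA per cell cannot be told apart.

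**Figure D1:**
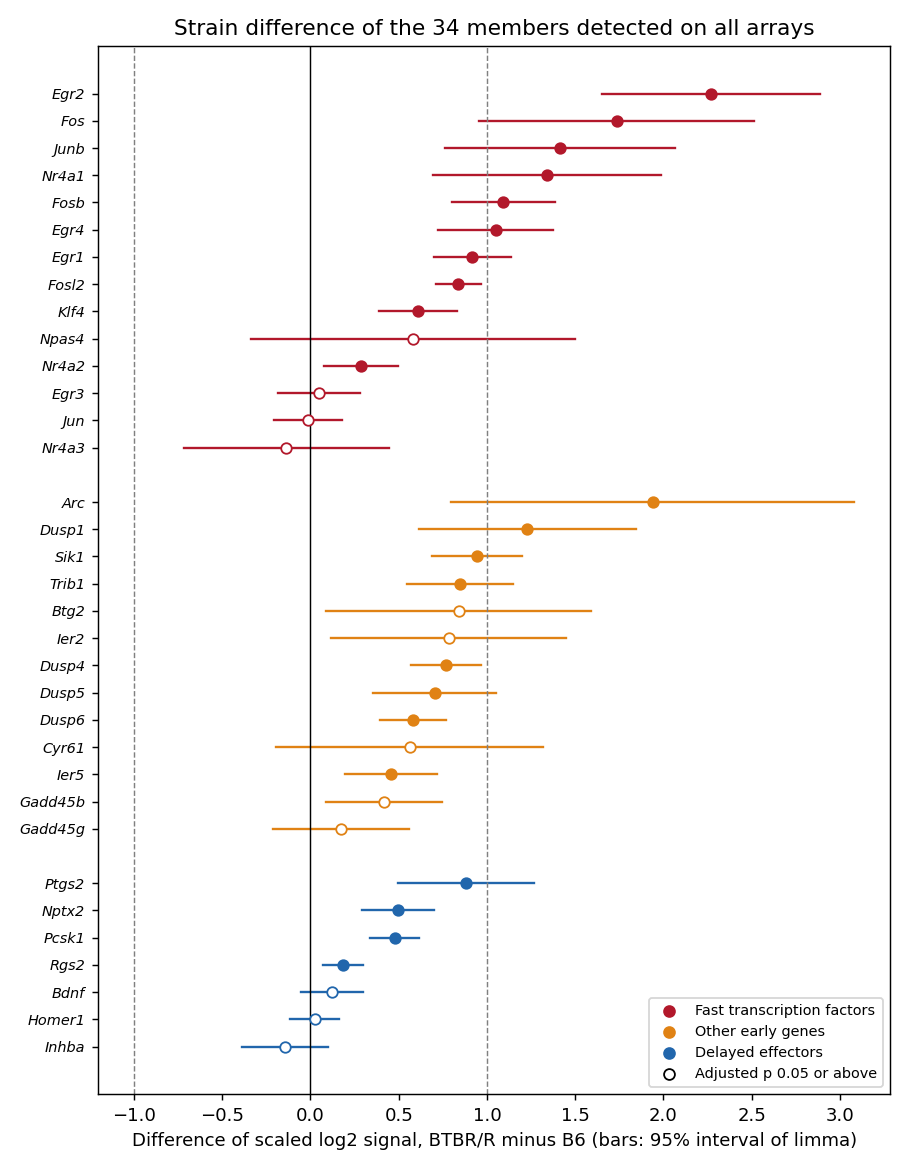
Strain difference of the scaled log2 signal (x axis, BTBR/R minus B6) for the 34 members detected on all 8 arrays, 1 row per gene, with the limma estimate and its 95% interval. Filled points passed at an adjusted p below 0.05, open points did not, dashed lines mark 2-fold, and 22 filled points all lie above 0.

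Among the fast transcription factors, 10 of the 14 detected members were higher and 6 of these were at least 2-fold higher. Egr2, a zinc finger factor induced by strong stimulation, had the largest difference of all 34 detected members. Its signal was -0.34, -0.31, 0.71 and -0.54 in B6 mice 1 to 4 and 2.18, 2.24, 1.97 and 2.21 in BTBR/R mice 1 to 4. The groups were separated by 1.26, the gap between the highest B6 and the lowest BTBR/R mouse, and the BTBR/R mean was 4.83-fold the B6 mean (95% interval 3.15 to 7.41, adjusted p = 0.000303). This probe lies at chr10:67004758-67004817 in mm9, the build of the array annotation.

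The Fos family encodes the partners with which Jun proteins form the AP-1 factor. Fos read -0.41, 0.26, 1.14 and -0.27 in B6 mice and 1.98, 2.15, 1.79 and 1.73 in BTBR/R mice. The BTBR/R mice lay close together and above every B6 mouse, the difference was 1.74 ± 0.33 (SE, n = 4 per strain), and the B6 mouse nearest to them was replicate 3. Fosb read -0.64, -0.41, -0.22 and -0.59 in B6 mice and 0.87, 0.65, 0.42 and 0.58 in BTBR/R mice, a difference of 1.09 ± 0.13 (adjusted p = 0.000281). Fosl2, which had the lowest adjusted p of all members (2.76e-05), read 0.69, 0.71, 0.76 and 0.60 in B6 mice and 1.53, 1.49, 1.48 and 1.60 in BTBR/R mice. Its difference of 0.84 ± 0.05 was smaller than that of Fos, and its mice were closer together in B6, with an SD of 0.07 against 0.70 for Fos. The Jun family was divided. Junb read 1.58, 2.33, 3.04 and 2.16 in B6 mice and 3.77, 3.72, 3.71 and 3.55 in BTBR/R mice, a difference of 1.41 ± 0.28 (adjusted p = 0.00536) that its other detected probe gave as 1.29. Jun ranged from 2.72 to 2.97 in B6 mice and from 2.74 to 3.0 in BTBR/R mice, and its difference of -0.01 had a 95% interval from -0.21 to 0.18 that does not reach the differences of Fos, Fosb, Fosl2 or Junb.

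The Egr family was divided as well. Egr1, widely used to mark active neurons, read 3.27, 3.37, 3.61 and 3.21 in B6 mice and 4.22, 4.30, 4.25 and 4.37 in BTBR/R mice, a difference of 0.92 ± 0.09 (adjusted p = 0.00013). Egr4 read 2.11, 2.32, 2.76 and 2.24 in B6 mice and 3.52, 3.41, 3.30 and 3.40 in BTBR/R mice, a difference of 1.05 ± 0.14 (adjusted p = 0.000657). In both genes the strains were apart and B6 replicate 3 was the highest B6 mouse. Egr3 ranged from 2.08 to 2.52 in B6 mice and from 2.31 to 2.48 in BTBR/R mice, and its 2 detected probes gave differences of 0.05 and 0.06. The 95% interval of the Egr3 difference, -0.18 to 0.28, ended below the lower limits of Egr1 (0.70), Egr2 (1.65) and Egr4 (0.72). These limits belong to separate comparisons, and the difference between the genes was not tested.

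The Nr4a genes encode orphan nuclear receptors. Nr4a1 read 3.31, 4.00, 4.76 and 3.89 in B6 mice and 5.32, 5.46, 5.31 and 5.24 in BTBR/R mice, a 2.53-fold difference (95% interval 1.62 to 3.96, adjusted p = 0.00669). Nr4a2 passed narrowly, with a range of 2.17 to 2.43 in B6 mice and 2.48 to 2.78 in BTBR/R mice and a difference of 0.28 (adjusted p = 0.0397). It no longer passed in 7 of the 8 comparisons that left out 1 mouse, all but the one without BTBR/R replicate 2. Nr4a3 overlapped between the strains, from -3.26 to -2.07 in B6 mice and from -3.09 to -2.80 in BTBR/R mice, and its difference of -0.14 did not pass (adjusted p = 0.697). Its other probes, detected on 6 and 2 arrays, gave 0.49 and 1.23 and did not pass either (adjusted p = 0.583 and 0.0547). Klf4, a Krüppel-like zinc finger factor, read 0.48, 0.38, 0.76 and 0.52 in B6 mice and 1.18, 1.26, 1.01 and 1.13 in BTBR/R mice, a difference of 0.61 ± 0.09.

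Npas4 is a neuron-specific factor that responds to calcium entry more selectively than the other fast genes. It was chosen for description by mouse after its values were seen. Npas4 read 0.57, 2.02, 2.35 and 1.04 in B6 mice and 1.95, 2.28, 2.27 and 1.81 in BTBR/R mice. B6 mice 2 and 3 lay within or above the BTBR/R range, and B6 mice 1 and 4 lay below it. The difference of 0.58 ± 0.39 did not pass (adjusted p = 0.283), and its 95% interval, -0.34 to 1.5, leaves room for a difference as large as that of Junb. 

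The 2 members not detected throughout were fast transcription factors. Maff, a small partner of AP-1 type factors, was detected on 1 B6 and 1 BTBR/R array and read -5.62, -4.67, -5.99 and -4.96 in B6 mice and -1.26, -3.65, -3.89 and -4.26 in BTBR/R mice. It passed at an adjusted p of 0.0468 with BTBR/R replicate 1 far above the others, and it did not pass when any of 6 mice was left out, the exceptions being BTBR/R replicates 1 and 4. Atf3, a stress-responsive factor, was detected on 4 B6 and 2 BTBR/R arrays, and read -4.01, -3.71, -4.11 and -4.21 in B6 mice and -3.99, -3.25, -2.98 and -3.85 in BTBR/R mice. Its groups overlapped (adjusted p = 0.147). The lowest detected signal was higher on the BTBR/R arrays than on the B6 arrays, from 36.1 to 47.1 against 14.5 to 17.8.

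**Figure D2:**
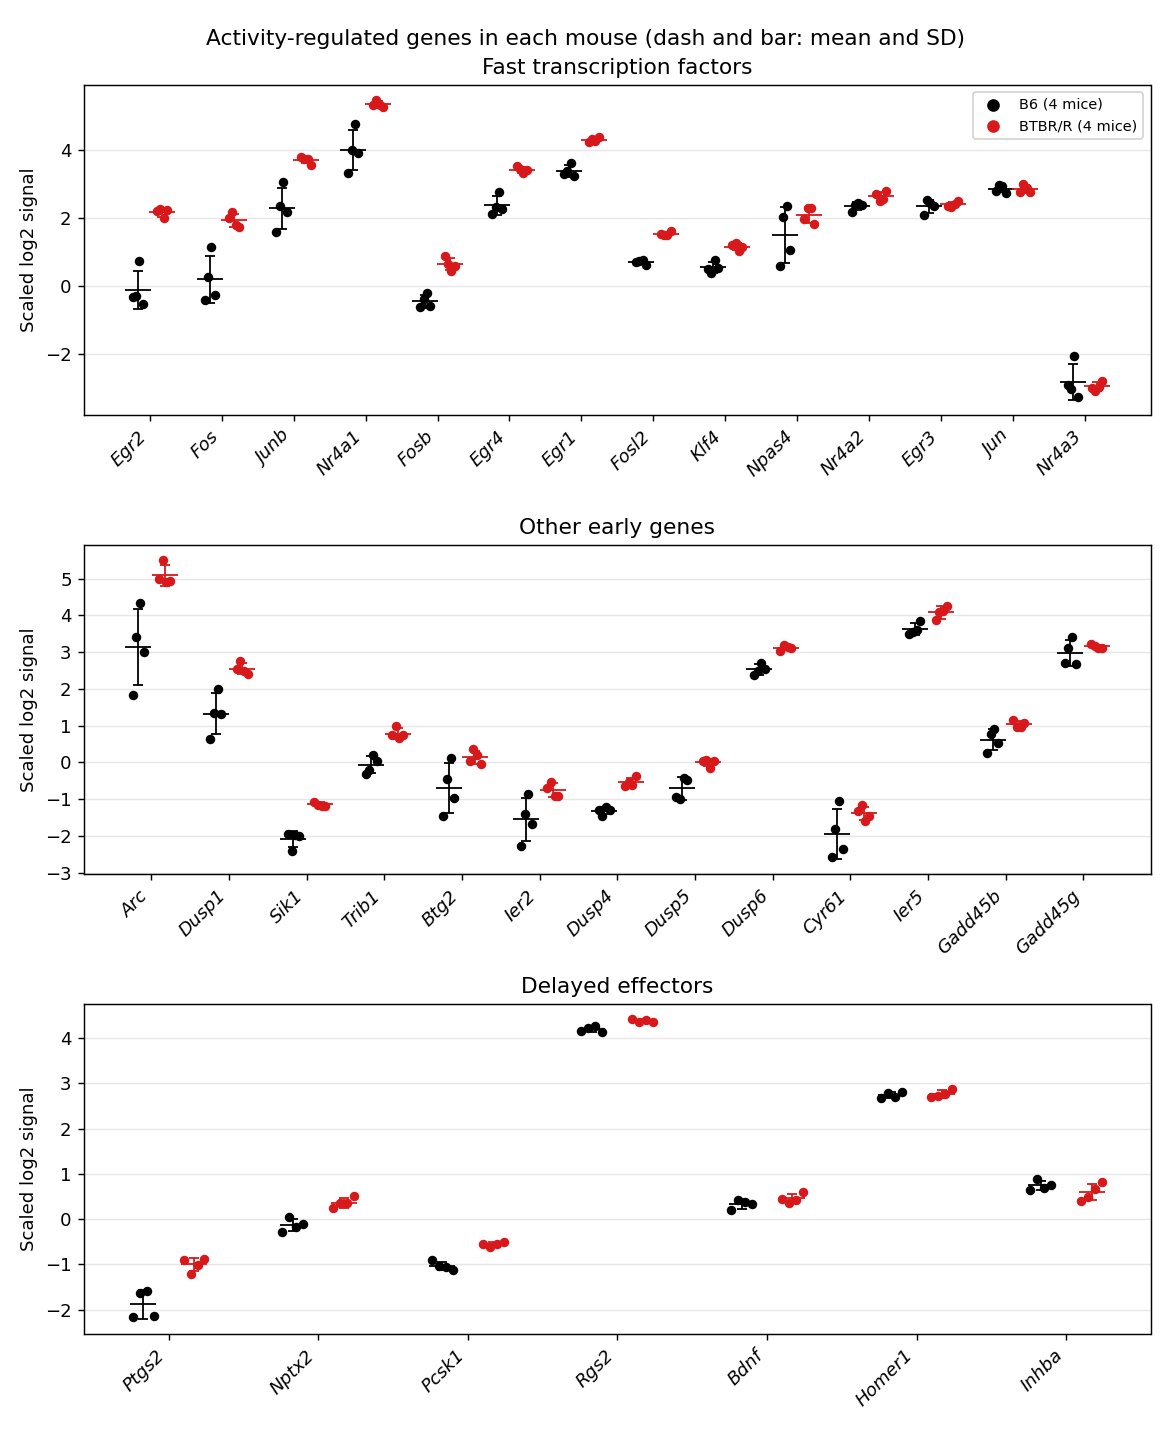
Scaled log2 signal (y axis) of the 34 detected members in each B6 mouse (black) and each BTBR/R mouse (red), with the mean and SD of 4 mice, in 3 panels by role and ordered by strain difference. In Egr2, Fos, Junb, Nr4a1 and Arc the B6 mice are scattered below a tight group of BTBR/R mice, whereas the strains overlap in Jun, Egr3 and Homer1.

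The other early genes followed the same direction, with 8 of 13 higher, 2 of them at least 2-fold, and 13 of 13 with a positive difference. Arc encodes a protein made at dendrites that controls AMPA receptor traffic, and its mouse values are given because its spread in B6, seen in the data, was the largest of the 34 detected members. Arc read 1.85, 3.41, 4.34 and 3.0 in B6 mice and 4.99, 5.52, 4.91 and 4.94 in BTBR/R mice. The highest B6 mouse was 5.63-fold above the lowest, yet all of them lay below the BTBR/R mice, and the strain difference was 3.84-fold with a wide 95% interval, 1.74 to 8.48 (adjusted p = 0.0166). The probe lies at chr15:74499597-74499656 (mm9).

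The dual-specificity phosphatases remove phosphate from MAP kinases, and Dusp1, Dusp4, Dusp5 and Dusp6 all passed. Dusp4 read -1.30, -1.45, -1.2 and -1.29 in B6 mice and -0.65, -0.55, -0.62 and -0.36 in BTBR/R mice, a difference of 0.77 ± 0.08 (adjusted p = 0.00022), and its other detected probe gave 1.10. Dusp6 read 2.38, 2.47, 2.71 and 2.55 in B6 mice and 3.03, 3.19, 3.13 and 3.1 in BTBR/R mice, a difference of 0.58 ± 0.08. Dusp1 differed by 1.23 ± 0.26, with B6 mice from 0.64 to 2.0 and BTBR/R mice from 2.41 to 2.76, and Dusp5 differed by 0.70 ± 0.15. None of the 4 genes overlapped between strains. Sik1, a salt-inducible kinase that restrains CREB coactivators, read -1.96, -2.42, -1.98 and -2.0 in B6 mice and -1.07, -1.16, -1.17 and -1.18 in BTBR/R mice, a 1.93-fold difference (95% interval 1.61 to 2.30, adjusted p = 0.000287). Trib1, a pseudokinase, read -0.31, -0.21, 0.20 and 0.05 in B6 mice and 0.74, 0.98, 0.65 and 0.75 in BTBR/R mice. Its difference was 0.85 ± 0.13, and a second detected probe gave 0.77 ± 0.37 and did not pass (adjusted p = 0.14).

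The remaining 6 early genes were less clear cut. Ier5 passed, with a difference of 0.46 (adjusted p = 0.0144). Ier2, the antiproliferative gene Btg2, the matrix protein gene Cyr61 and the stress genes Gadd45b and Gadd45g had differences of 0.78, 0.84, 0.56, 0.42 and 0.18, and none passed (adjusted p = 0.0639, 0.0752, 0.211, 0.0504 and 0.439). The call of the first 4 of these 5 genes changed when 1 mouse was left out, and with all mice kept it also changed for Ier2 and Btg2 under 2 other settings and for Gadd45b under 4. Without B6 replicate 3 the difference was 1.02 for Ier2, 1.11 for Btg2, 0.86 for Cyr61 and 0.51 for Gadd45b, and all of them passed (adjusted p = 0.0132, 0.0132, 0.0192 and 0.0224). Gadd45g read 2.70, 3.12, 3.41 and 2.69 in B6 mice, on either side of the BTBR/R mice at 3.21, 3.17, 3.12 and 3.12. Its SD was 8.00 times as large in B6 as in BTBR/R, the largest ratio among the members.

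Of the 7 delayed effectors, 4 were higher and none reached 2-fold, and all 7 were detected on every array. Ptgs2, the inducible cyclooxygenase of prostaglandin synthesis, had the largest difference. It read -2.17, -1.63, -1.58 and -2.15 in B6 mice and -0.91, -1.2, -1.0 and -0.89 in BTBR/R mice, which is 1.84-fold (95% interval 1.41 to 2.40, adjusted p = 0.00412). Nptx2, a secreted pentraxin that gathers AMPA receptors, read -0.29, 0.04, -0.17 and -0.10 in B6 mice and 0.24, 0.35, 0.36 and 0.51 in BTBR/R mice. Its 2 probes gave differences of 0.50 ± 0.09 and 0.42 ± 0.08 (adjusted p = 0.00313 and 0.00459). Pcsk1, a prohormone convertase, read -0.91, -1.04, -1.06 and -1.12 in B6 mice and -0.54, -0.62, -0.56 and -0.50 in BTBR/R mice, a difference of 0.48 ± 0.06 (adjusted p = 0.000411). In these 3 genes the strains did not overlap. Rgs2, which speeds the shutdown of G protein signals, read 4.15, 4.23, 4.26 and 4.14 in B6 mice and 4.42, 4.35, 4.39 and 4.35 in BTBR/R mice. The Rgs2 difference was small, 1.14-fold, with an SD of 0.06 in B6 and 0.03 in BTBR/R mice, and it passed (adjusted p = 0.0191). It did not pass without B6 replicate 4 (adjusted p = 0.0507).

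The other 3 effectors did not pass. Bdnf, the growth factor most often studied as an activity-dependent transcript, read 0.20, 0.43, 0.37 and 0.34 in B6 mice and 0.44, 0.36, 0.43 and 0.61 in BTBR/R mice. Its single probe had a difference of 0.12 with a 95% interval from -0.05 to 0.30, so a difference of the size seen in Nptx2 or Ptgs2 lies outside it. Inhba, a subunit of activin, read 0.66, 0.89, 0.68 and 0.76 in B6 mice and 0.41, 0.50, 0.67 and 0.83 in BTBR/R mice. Its spread was larger in BTBR/R mice, and the difference of -0.14 had an interval from -0.39 to 0.10.

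Homer1 had 4 detected probes that did not give the same answer. The brightest, assigned by the array to transcript variant L, read 2.67, 2.78, 2.71 and 2.82 in B6 mice and 2.70, 2.73, 2.76 and 2.88 in BTBR/R mice, a difference of 0.02 ± 0.06. The probe of variant d gave -0.01 ± 0.07. The probe of variant S, the short form known as the activity-induced product of the gene, read 1.57, 1.65, 1.79 and 1.58 in B6 mice and 1.78, 2.04, 1.73 and 1.86 in BTBR/R mice. Its difference of 0.21 ± 0.08 did not pass (adjusted p = 0.0944), and 2 BTBR/R mice lay within the B6 range. The probe assigned to an Ensembl transcript at chr13:94129858-94129917 (mm9) read 0.08, 0.46, 0.24 and 0.26 in B6 mice and 0.72, 0.93, 0.76 and 1.15 in BTBR/R mice, without overlap, and passed with a difference of 0.63 ± 0.12 (adjusted p = 0.00467). Over the mean of the 4 probes Homer1 differed by 0.21 and passed (adjusted p = 0.0243), so the place of Homer1 among the delayed effectors rests on the probe used.

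**Figure D3:**
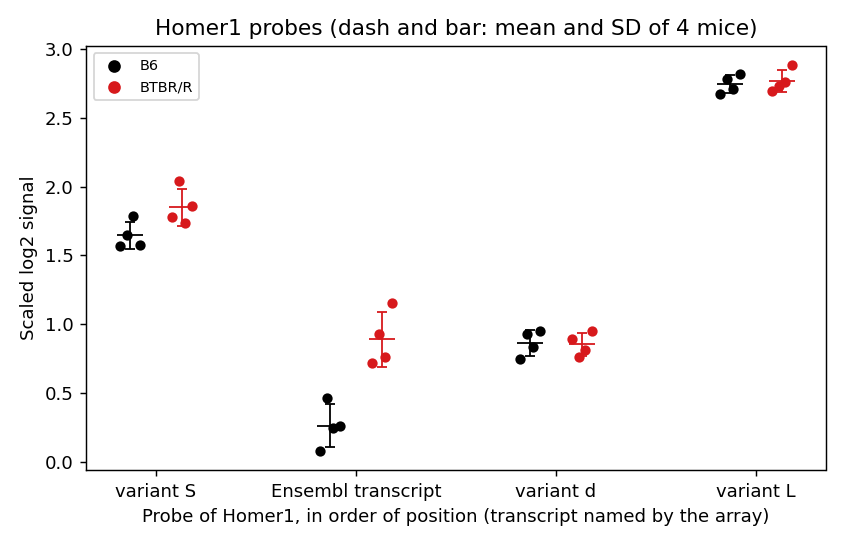
Scaled log2 signal (y axis) of the 4 Homer1 probes in each mouse, with the mean and SD of 4 mice per strain. The strains do not overlap at the probe of the Ensembl transcript, whereas the probes of variants S, d and L overlap between strains.

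More than 1 probe was detected on all arrays for 8 members, Homer1 among them. The detected probes were higher throughout in Junb, Dusp4, Nptx2 and Nr4a2 and did not pass in Btg2 and Egr3, and they were divided in Trib1 and Homer1. Of the 10 detected probes that were not the brightest of their gene, 5 were higher, 5 did not pass, and none was lower.

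The members also differed between strains in how far mice of 1 strain lay apart. The SD of the 4 mice was larger in B6 than in BTBR/R for 27 of the 34 detected members, against 43.8% of all detected probes. It was at least 2-fold larger in B6 for 20 members, against 13.1% of all detected probes, and at least 2-fold larger in BTBR/R for none, against 21.5%. The median SD of the members was 0.226 in B6 and 0.113 in BTBR/R, beside 0.0761 and 0.0847 over all detected probes. By role, the SD was larger in B6 in 12 of 14 fast transcription factors, 11 of 13 other early genes and 4 of 7 delayed effectors. It was at least 2-fold larger in 9, 10 and 1 of them, the 1 effector being Ptgs2.

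A two-sided permutation test of the mean absolute deviation from the strain mean was run gene by gene. By it, 7 members had a larger spread in B6 at the smallest p that 4 mice against 4 allow (0.0286, unadjusted). These were Egr2, Npas4, Btg2, Dusp5, Gadd45g, Sik1 and Ptgs2, and 3.02% of all detected probes were past an unadjusted 0.05 in that direction. In Sik1 the B6 spread came from replicate 2, at -2.42 beside -2.0 to -1.96 in the other B6 mice. In Egr2 it came mostly from replicate 3, at 0.71 beside -0.54 to -0.31. In the others named, no single B6 mouse stood apart in this way. No member had a larger spread in BTBR/R at a p of 0.0286. This p is approximate, since the deviations were taken from estimated strain means. In simulated data 6.19% of unchanged probes were below 0.05, more than the p of 0.0286 states. A limma form of the test called 1 member, Dusp5, but it recovered 13 of 200 simulated spread differences and called 43 unchanged probes over 56605 simulated probes, so its calls were not relied on. The largest ratios of the B6 to the BTBR/R SD were those of Gadd45g (8.00), Nr4a1 (6.48) and Junb (6.32). The largest ratios in the other direction were 2.27 in Maff and 2.22 in Atf3, neither detected throughout, and 1.79 in Inhba. 

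**Figure D4:**
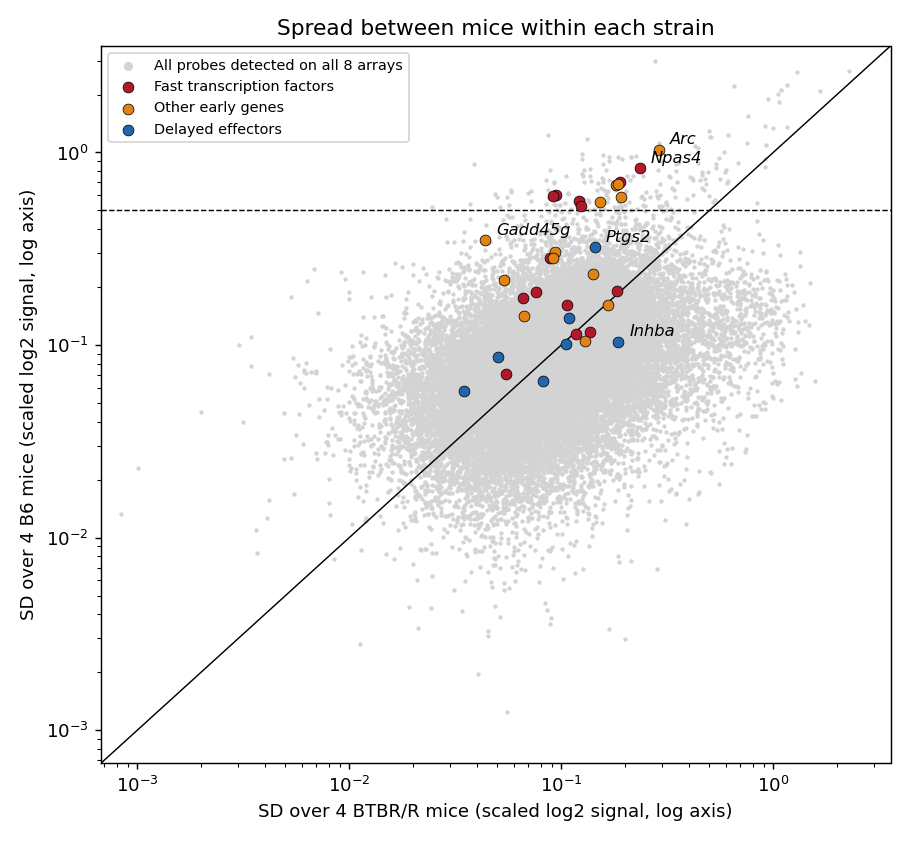
SD over 4 B6 mice (y axis) against SD over 4 BTBR/R mice (x axis), both of the scaled log2 signal on log axes, for all 28547 probes detected on all 8 arrays (grey) and the 34 detected members (colored by role). Points above the diagonal vary more among B6 mice, 27 members lie there, and the 11 members above the dashed line at an SD of 0.5 in B6 include no delayed effector.

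An SD above 0.5 in B6, a limit set after the data were seen, was exceeded by 11 members and by 0.666% of all detected probes. These members were the 6 factors Fos, Junb, Egr2, Npas4, Nr4a1 and Nr4a3 and the 5 other early genes Arc, Ier2, Btg2, Dusp1 and Cyr61. Within B6 the highest mouse was 2.29-fold to 5.63-fold above the lowest in these genes, whereas within BTBR/R the mice were at most 1.53-fold apart. In 6 of the 11 the strains still did not overlap and the gene was higher in BTBR/R, and in the other 5 the strains overlapped and the gene did not pass. Among the 23 members with a smaller spread, 16 were higher. The 6 detected members with the largest strain differences (Egr2, Arc, Fos, Junb, Nr4a1 and Dusp1) all had an SD above 0.5 in B6.

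The B6 mice took the same order in most of these genes. B6 replicate 3 was the highest B6 mouse in 11 of the 11 widely spread members and replicate 1 the lowest in 9. Over the 34 detected members, replicate 3 was the highest in 25 and replicate 1 the lowest in 22, while over all detected probes replicate 3 was the highest in 20.7% and replicate 1 the lowest in 28.0%. The mean scaled log2 signal of the 14 fast transcription factors was 1.05, 1.39, 1.81 and 1.17 in B6 mice 1 to 4 and 2.24, 2.26, 2.17 and 2.20 in BTBR/R mice 1 to 4. For the 13 other early genes it was 0.038, 0.46, 0.91 and 0.40 in B6 mice and 1.22, 1.36, 1.16 and 1.21 in BTBR/R mice. For the 7 delayed effectors it was 0.61, 0.81, 0.74 and 0.67 in B6 mice and 0.96, 0.92, 1.01 and 1.11 in BTBR/R mice. In the 7 effectors, B6 replicate 1 was the lowest in 5, as it was in 8 of the 14 fast transcription factors, whereas replicate 3 was the highest in 2 and replicate 2 in 3. In BTBR/R mice replicate 2 was the highest in 8 of the 13 other early genes and replicate 4 in 6 of the 7 effectors. The genes of a mouse share its tissue, RNA and array and are not independent replicates of this order.

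**Figure D5:**
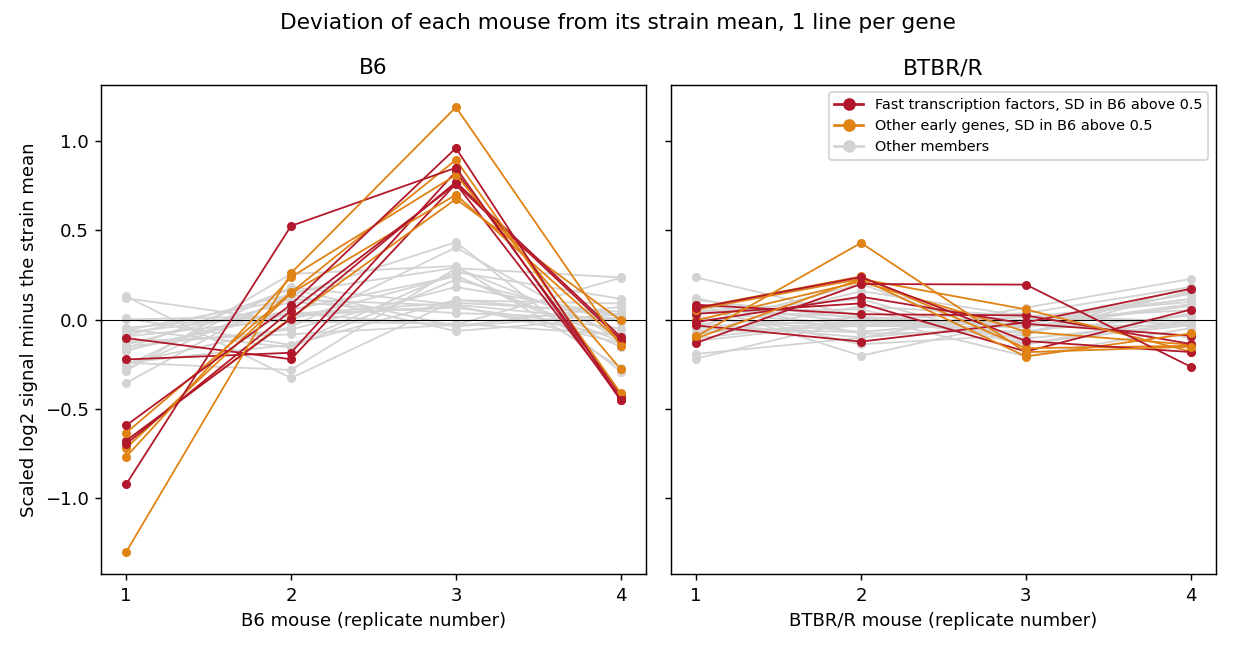
Deviation of each mouse from the mean of its strain (y axis, scaled log2 signal) for the 34 detected members, 1 line per gene, in B6 (left) and BTBR/R (right), with the 11 members whose SD in B6 exceeded 0.5 in color. The colored lines peak at B6 replicate 3 in every case and stay close to 0 in BTBR/R.

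Leaving out 1 mouse at a time kept the direction of all 23 higher members. Without B6 replicate 3, the highest B6 mouse, 25 members were higher and 11 at least 2-fold higher, and without B6 replicate 1, the lowest, 21 were higher and 7 at least 2-fold higher. Without BTBR/R replicate 1, the mouse of 6 months, 22 were higher and 9 at least 2-fold higher.

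Other genes of the same programme were taken from a list of 32, which like the members was chosen with earlier results of these data known. Of the 32, 30 were detected on all 8 arrays. Of the 30 detected genes, 15 were higher in BTBR/R mice, beside 13% of all detected probes, 1 was lower, beside 13.9%, and 14 did not pass, with a median difference of 0.26. The largest differences among detected genes were those of Tiparp (0.88, adjusted p = 0.00103), a member of the poly-ADP-ribose polymerase family, the GTPase Arl4d (0.86, adjusted p = 0.0139), the zinc finger factors Klf10 (0.74, adjusted p = 0.000776) and Klf2 (0.66, adjusted p = 0.0223), and the GTPase Gem (0.68, adjusted p = 0.00426). None of these reached 2-fold. Fosl1, a Fos family member, was detected on no array, and no difference is given for it. The gene that was lower was Nrn1, a membrane-anchored neuritin that promotes neurite growth (-0.30, adjusted p = 0.0179).

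A list of 40 genes that carry the signal to the nucleus held receptors, channels, kinases and the factors they act on, all detected on all 8 arrays. Of these, 4 were higher, beside 13% of all detected probes, 1 was lower, beside 13.9%, and 35 did not pass, with a median difference of 0.03. The 4 were the CREB relative Atf1 (0.35, adjusted p = 0.00282), the NMDA receptor subunit Grin2a (0.33, adjusted p = 0.0276), the serum response factor Srf (0.27, adjusted p = 0.00186) and the catalytic subunit Prkaca of protein kinase A (0.21, adjusted p = 0.0161). The gene that was lower encodes the L-type calcium channel subunit Cacna1d (-0.31, adjusted p = 0.0169). The number of these genes that passed moved from 3 to 12 with the processing.

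Markers of the tissue and of its cell types were read beside these results, with 13% of all detected probes higher and 13.9% lower for reference, and those that passed are named after their values were seen. The 12 cortical markers summed to 41.8 to 48.0 in B6 mice and 44.8 to 49.6 in BTBR/R mice, in units of the 75th percentile of each array, with 3 higher (Neurod2, Fezf2 and Slc30a3) and 2 lower (Rorb and Lamp5). The 12 striatal markers summed to 220.2 to 233.9 and 201.7 to 228.9, with 1 lower (Pde10a), and the 8 neuronal markers to 464.3 to 476.3 and 445.9 to 457.6, with 1 higher (Eno2) and 1 lower (Nefl). All of these markers were detected on all 8 arrays, in both strains. Among the cell type lists reported here, lower in BTBR/R mice were 4 of 8 astrocyte markers (Aqp4, Aldh1l1, Slc1a2 and Gjb6), 2 of 8 oligodendrocyte markers (Mog and Mobp) and 2 of 10 endothelial and mural markers (Cldn5 and Kdr). These 3 lists had mean scaled log2 signals of 2.78, 3.04 and 0.28 against 2.96, 3.35 and 0.41 in B6 mice. Of 8 choroid plexus markers none passed, but their sum differed widely between mice, at 41.9, 32.6, 14.9 and 2.80 in B6 mice 1 to 4 and from 6.33 to 26.1 in BTBR/R mice, an order that the members did not share. B6 replicate 1, the lowest mouse in most members, was also the lowest B6 mouse in 11 of the 12 striatal markers and 8 of the 12 cortical ones. The part of these marker differences in the results for the members was not tested.

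Genes of other rapid responses were read in the same way, beside 13% of all detected probes higher and 13.9% lower. Of 8 heat shock genes, 1 was higher (Bag3) and 1 lower (Hspa1a). Of 10 glucocorticoid-responsive genes, 3 were higher (Zbtb16, Pdk4 and Errfi1) and 3 lower (Tsc22d3 and the metallothionein genes Mt1 and Mt2). Errfi1, a feedback inhibitor of the EGF receptor, stands in this list and in that of the other activity genes.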

How the data were processed

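RNA of 4 B6 and 4 BTBR/R mice was measured on 8 Agilent 1-color arrays, 1 mouse per array without pooling, and samples were grouped by the strain in their labels. The authors deposited the spot intensity values of Agilent Feature Extraction 10.7.3.1, from which the software had subtracted background and spatial trends and in which it had set the lowest signals to a surrogate value. They also deposited log2 values from GeneSpring, which differed from the log2 of these signals by a single shift per array, within 0.01 for 99.97% to 99.99% of probes. Control spots and 36 to 52 outlying spots per array were left out, spots of a probe were averaged, and log2 signals minus the 75th percentile of the array went into lmFit and eBayes of limma 3.58.1 (R 4.3.3), with p-values adjusted by Benjamini-Hochberg over all probes. No spot was saturated. The number of arrays limits the precision. Signals were detected for 66.1% to 68.3% of spots on B6 and 55.6% to 59.1% on BTBR/R arrays. Tables and figures used Python 3.11.15, numpy 2.4.6, pandas 2.3.3 and matplotlib 3.10.9.

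The members, roles and gene lists were chosen with earlier results of these data known. Values by mouse were given for up to 14 members in order of adjusted p, all delayed effectors and the 3 members with the largest SD ratio in each direction, and for up to 6 genes per direction of the 2 pathway lists only the difference. Tested on simulated data, the strain comparison over 56605 probes recovered 195 of 200 changed probes (97.5%) and called 3 unchanged probes. The planned limma test of absolute deviations failed on simulated data, and the permutation test over 70 arrangements was added after the data were seen. In simulated data 6.19% of unchanged and 60% of changed probes were below 0.05 by it.

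Alternatives tried were a replicate block, the mean over the detected probes of a gene, omission of each mouse, the methods' t-test, the trend and robust options of limma, 2 filters on dim probes, the log2 values the authors deposited, quantile normalization, the normexp correction of background with an offset of 50, and scaling to the median, to 7 spike-in probes or to the 75th percentile over detected probes. Motifs were searched in RefSeq promoter windows. No genome sequence was used, so exon positions of probes are not given. The microglial marker list is not reported here.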

Additional observations from a re-analysis of the deposited data

Results flagged for a closer look

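The 4 mice of each strain were examined for a single mouse apart from the others in each of the 34 detected members, which makes 68 groups. In 3 of them 1 mouse stood apart by Dixon's test at the 95% level, and chance flags about 1 in 20 groups. Arc was highest in BTBR/R replicate 2, at 5.52 against 4.91 to 4.99 in the other BTBR/R mice, and the gap made up 0.856 of the range. Dusp5 was lowest in BTBR/R replicate 3, at -0.14 against 0.033 to 0.055 (0.889 of the range). Sik1 was lowest in B6 replicate 2, at -2.42 against -2.0 to -1.96 (0.914 of the range). All 3 genes were higher in BTBR/R mice under every alternative and without each mouse in turn.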

How the results depend on the processing

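Under 12 other settings and with each of the 8 mice left out, 20 of the 23 higher members were higher every time, the exceptions being Nr4a2, Maff and Rgs2. The count of higher members ranged from 20 to 26, that of members at least 2-fold higher from 6 (normexp background correction) to 11, that of members with a larger SD in B6 from 25 to 31, and that of other activity genes that passed in either direction, undetected Fosl1 included, from 13 to 20 of 32, against 17. None was lower under any setting. Spike-in scaling moved the median difference of all probes from 0.074 to 0.19 and that of detected probes from 0.0015 to 0.12. Signalling genes that passed numbered 8 with quantile normalization, spike-in scaling and the methods' t-test, 12 with limma's trend and robust options, and 3 with median scaling, against 5. The limma test of spread called 0 members with scaling by the 75th percentile of detected probes and 0 to 1 without single mice. The permutation test, unadjusted, called 7. Small differences changed sign, Homer1 to -0.0046 with normexp correction and to -0.0049 with median scaling, and Jun to 0.10 with spike-in scaling. Without single mice, Jun ranged from -0.067 to 0.024, Egr3 from -0.035 to 0.11, Nr4a3 from -0.28 to 0.12 and Homer1 from -0.016 to 0.047. Npas4 ranged from 0.27 to 0.86 and Gadd45g from 0.078 to 0.32 in the same way, and neither passed. The cause was not tested.

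Mice with the same replicate number share a slide row, and their deviations from the strain means correlated at 0.0028, -0.070, -0.045 and 0.16. Those of mice with different numbers correlated at -0.13 to 0.15. So few pairs cannot exclude a pairing by row, and the main comparison does not pair the mice. With a replicate block 20 members were higher (Nr4a2, Maff and Rgs2 did not pass), 8 were at least 2-fold higher, and 13 other activity genes and 3 signalling genes passed. Dim members are limited by the lower detection on BTBR/R arrays.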
